A study of Mus musculus with 15 samples.

Results

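Cd209b, Cd209d, Cd209f and Cd209g are mouse paralogues of the human lectin CD209 (DC-SIGN), also known as SIGNR1, SIGNR3, SIGNR8 and SIGNR7. They were selected on their measured signal, which differed between macrophages of healthy and diseased livers on these same arrays, so their own differences between the groups are given as a description without a test. Their probes were found through the RefSeq accession of each probe. Of the 4 genes, 3 had a probe, 1 each, among 20145 named genes, and all 3 were among the 13390 genes tested. No probe was matched to Cd209g, and no expression value is given for it. Cd209b was among the tested genes only through the wildtype group, since its probe was well above background on 5 wildtype arrays, 1 array of the CD11c-negative disease group and none of the CD11c-positive group. Cd209d and Cd209f were well above background on all 15 arrays.

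CD209 proteins are C-type lectins, cell surface receptors that bind carbohydrates with the help of calcium. They recognise mannose-rich and fucose-bearing glycans on bacteria, fungi, viruses and host proteins and take the bound particles up. The mouse carries a larger cluster of such genes than humans do. SIGNR1 is best known from macrophages of the splenic marginal zone and of lymph node medulla, where it captures dextrans and bacterial capsular polysaccharide and can engage complement C1q. SIGNR3 is a mannose and fucose receptor known from the recognition of mycobacteria. Less is known of the products of Cd209f and Cd209g.

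The cells were resident liver macrophages with high F4/80 from male mice, sorted by CD11c (integrin alpha X), with 5 arrays in each of 3 groups. The wildtype group held CD11c-negative cells from wildtype mice on a standard diet. Both disease groups came from mice lacking the melanocortin 4 receptor (MC4R-KO), which had non-alcoholic steatohepatitis (NASH) after 20 weeks of Western diet from 8 weeks of age, and these held CD11c-negative and CD11c-positive cells. Genotype and diet differ together between wildtype and NASH mice and cannot be told apart, and the labels do not state how old the wildtype mice were. Each sample was RNA pooled from 7 to 9 mice, and nothing says that the arrays of a group came from separate pools, so p-values cover the spread between these samples alone, and that spread may be technical.

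Values are normalized log2 signals, on which 0 is the 75th percentile of an array's probes. That percentile lay between 358.6 and 562.4 signal units, and 45.8% to 58.0% of an array's spots cleared the background. All 10 Kupffer cell markers examined, Clec4f, Vsig4 and Timd4 among them, were measured above background in every group, as were 5 of 6 general macrophage markers, while Cd68 was not measured. The median gene was 0.13 higher in NASH CD11c-negative than in wildtype cells and 0.16 higher in NASH CD11c-positive than in wildtype cells, and 0.01 higher in NASH CD11c-positive than in CD11c-negative cells. With quantile normalization these medians were 0.00, 0.05 and 0.03. Of the genes called against wildtype, 62.9% were higher in CD11c-negative and 66.2% in CD11c-positive NASH cells, against 49.0% and 54.4% with quantile normalization. In bulk RNA of sorted cells, fewer cells of a type and less RNA per cell cannot be told apart.

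The promoters of Cd209f and Cd209g are shown because Cd209f had the widest spread between the groups and the promoter of Cd209g, the member without a probe, repeats much of it. The windows reach from 250 bases before to 50 bases after a start assigned to each promoter (RefSeq, build GRCm38.p6). They are chr8:4105715-4106014 on the minus strand for Cd209f and chr8:4134486-4134785 on the plus strand for Cd209g. These starts differ from those of the gene reference. There Cd209g begins at 4134246, so its window lies inside the gene as listed, and Cd209f begins at 4105838, within its window. Positions below are counted from the assigned starts. Capitals mark the longest run of bases that both hold.
Cd209f: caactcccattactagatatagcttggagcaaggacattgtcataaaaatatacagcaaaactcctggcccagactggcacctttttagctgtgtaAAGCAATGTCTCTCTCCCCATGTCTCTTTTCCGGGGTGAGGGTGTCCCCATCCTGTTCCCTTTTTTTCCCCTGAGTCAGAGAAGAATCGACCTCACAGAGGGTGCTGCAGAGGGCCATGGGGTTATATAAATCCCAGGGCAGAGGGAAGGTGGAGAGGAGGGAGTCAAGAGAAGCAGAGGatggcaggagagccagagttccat
Cd209g: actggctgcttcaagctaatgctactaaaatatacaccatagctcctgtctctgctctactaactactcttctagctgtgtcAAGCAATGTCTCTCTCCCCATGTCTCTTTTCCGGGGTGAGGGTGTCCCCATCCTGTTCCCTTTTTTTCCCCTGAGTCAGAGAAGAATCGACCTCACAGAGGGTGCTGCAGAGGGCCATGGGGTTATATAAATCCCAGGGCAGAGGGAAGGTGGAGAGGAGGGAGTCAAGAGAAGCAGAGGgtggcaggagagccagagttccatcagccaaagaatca
The shared run is 180 bases long, and 2 of 32851 mouse promoters in the table hold it. Over the aligned stretch 242 of 255 bases were identical (94.9%, with 5 gap bases beside them). The run holds the AP-1 letters TGANTCA, at -83 from the assigned start of Cd209f and -97 from that of Cd209g, and the TATA letters TATAAA, at -29 and -43. On either strand, TGANTCA stands in 7.81% and TATAAA in 13.6% of all these promoters. Cd209b and Cd209d share less. Of 168 aligned bases 112 were identical (66.7%), and the longest common run was the 12 bases AATTTGGTCACA, which 3 promoters in the table hold. The PU.1 letters GAGGAA (28.3% of promoters) and the MAF letters TGCTGA (19.5%) were found in Cd209d alone of the 4. The STAT6 letters, TTC and GAA with 4 bases between them (6.95%), and the nuclear receptor letters AGGTCA (16.3%) were in none of the 4 windows. Motifs were searched on both strands, none of those printed overlapped another, and the letters were picked after the promoters had been seen. The probe sequences were not used here, so whether the probe of Cd209f also takes up transcripts of Cd209g or of other paralogues was not tested.

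Cd209f (probe A_55_P2000543) was far lower in NASH cells than in wildtype cells, and lowest in the CD11c-positive ones. The 5 wildtype arrays stood at 2.97, 3.00, 2.99, 3.11 and 3.05. The NASH CD11c-negative arrays stood at -1.06, 0.03, -0.62, -0.96 and -0.82. The NASH CD11c-positive arrays stood at -2.53, -2.54, -2.62, -2.56 and -2.90. No array of a group reached the range of another, and the arrays were closest together in wildtype cells and farthest apart in NASH CD11c-negative cells, where replicate 2 was highest. The processed signal lay between 3306 and 3553 units in wildtype cells, between 184.1 and 412.4 in NASH CD11c-negative cells and between 63.96 and 97.55 in NASH CD11c-positive cells.

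In NASH CD11c-negative cells the mean of Cd209f was 3.71 ± 0.16 (limma SE, n = 5 arrays per group) log2 below the wildtype mean, a 13.1-fold difference that left 7.64% of the wildtype signal. In NASH CD11c-positive cells it was 5.65 ± 0.16 below, a 50.3-fold difference that left 1.99%. The CD11c-positive cells were in turn 3.84-fold below the CD11c-negative NASH cells (-1.94 ± 0.16). Relative to the median gene the 3 differences were -3.84, -5.81 and -1.95. Counted from the most negative difference of the 13390 genes, Cd209f ranked 12 in NASH CD11c-negative against wildtype cells, 2 in CD11c-positive against wildtype cells and 22 between the NASH groups. The arrays lay on 2 slides, each holding all 3 groups. Within slide 1 and slide 2 the differences were -3.54 and -3.97 for CD11c-negative against wildtype cells, -5.52 and -5.77 for CD11c-positive against wildtype cells, and -1.98 and -1.80 between the NASH groups.

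Cd209b (probe A_52_P267717), the gene of SIGNR1, had a low signal that was measured in every wildtype array and in 1 NASH array. The wildtype arrays stood at -2.67, -2.74, -3.05, -2.67 and -2.84, which are processed signals of 52.33 to 69.82 units. The NASH CD11c-negative arrays stood at -3.88, -4.92, -5.23, -4.62 and -4.99, of which only replicate 1, the highest, was well above background. The NASH CD11c-positive arrays stood at -6.42, -5.21, -5.93, -6.47 and -4.61, and none was well above background. All NASH arrays lay below all wildtype arrays, and the NASH groups overlapped. For NASH CD11c-negative cells the fitted difference from wildtype was -1.94 ± 0.33. With the lowest signal that passed as well above background taken as a floor, Cd209b was at least 2.25-fold lower. For NASH CD11c-positive cells the fitted difference was -2.94 ± 0.33, and with such a floor the gene was at least 2.67-fold lower. The fold of these fits rests on values below background. With normexp background correction, the other way of setting the background, the differences shrank to -0.47 and -0.93, under the bounds of 1.17 and 1.41 log2. No fold is given between the NASH groups, since the gene was not well above background on 9 of the 10 arrays. Within slide 1 and slide 2 the fitted differences were -1.86 and -2.05 for CD11c-negative against wildtype cells and -3.0 and -2.92 for CD11c-positive against wildtype cells.

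Cd209d (probe A_55_P2055985), the gene of SIGNR3, differed far less. The wildtype arrays stood at 0.99, 0.97, 0.81, 0.77 and 0.75. The NASH CD11c-negative arrays stood at 0.57, 0.47, 0.57, 0.24 and 0.18, and the NASH CD11c-positive arrays at 0.59, 0.62, 0.51, 0.50 and 0.43. Every NASH array was below every wildtype array, and the NASH groups overlapped. The mean was 1.37-fold lower in NASH CD11c-negative cells (-0.45 ± 0.08, 73.1% of the wildtype signal) and 1.25-fold lower in NASH CD11c-positive cells (-0.33 ± 0.08, 79.8%). Relative to the median gene these were -0.58 and -0.49.

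The arrays of Cd209d also differed by slide. The slide 1 and slide 2 means were 0.92 and 0.76 in wildtype cells, 0.54 and 0.21 in NASH CD11c-negative cells, and 0.61 and 0.48 in NASH CD11c-positive cells, so slide 2 was lower in all 3 groups. Within slide 1 and slide 2, CD11c-negative cells differed from wildtype cells by -0.39 and -0.55 log2, and CD11c-positive cells differed from wildtype by -0.32 and -0.28. Between the NASH groups, CD11c-positive minus CD11c-negative, the difference was 0.13 ± 0.08 over all arrays, 0.07 on slide 1, 0.27 on slide 2 and 0.17 with slide as a block.

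**Figure D1:**
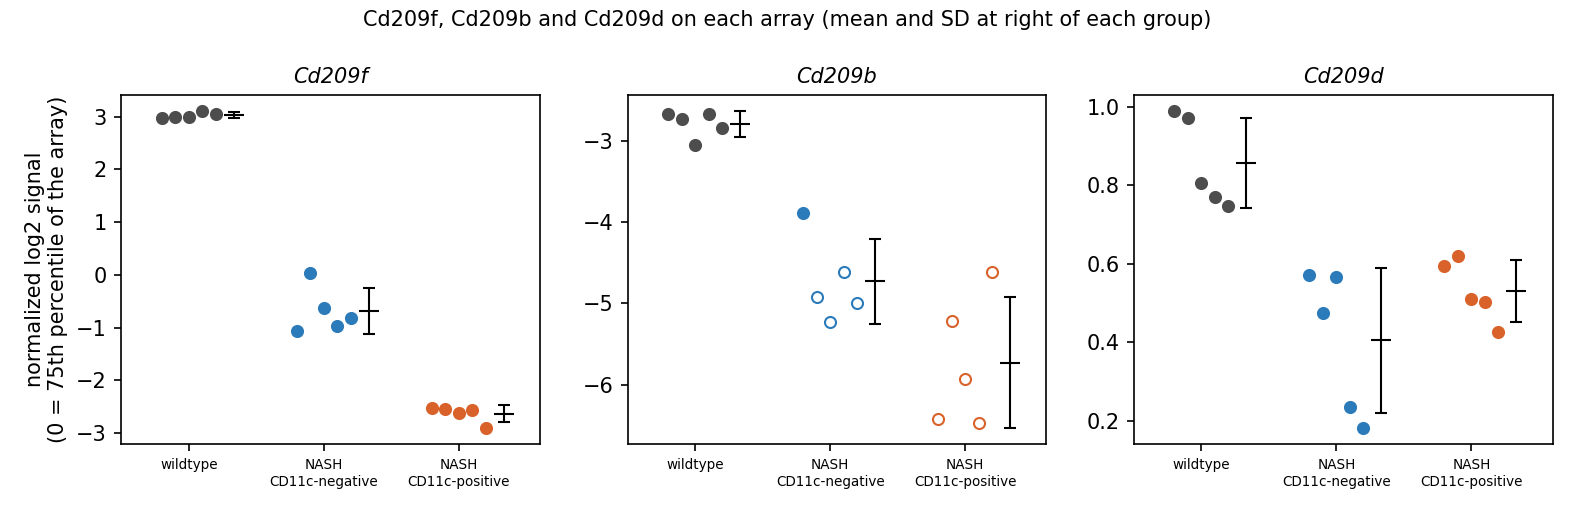
Normalized log2 signal of Cd209f, Cd209b and Cd209d on each of the 15 arrays (y axis, 0 is the 75th percentile of the array, a separate scale per gene) by group (x axis); open points were not well above background, and the bar to the right of each group is the mean and SD of 5 arrays. Wildtype arrays lie above all NASH arrays for each gene, the NASH groups are apart for Cd209f alone of these 3, and 9 of the 10 NASH points of Cd209b are open.

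All 3 measured genes were lower than wildtype without overlap of the arrays in NASH CD11c-negative cells, where 23.3% of the tested genes were lower in this way, and in NASH CD11c-positive cells, where 22.9% were. Over all tested genes, 28.5% and 26.3% passed an adjusted p of 0.05 as lower in these comparisons, and 48.3% and 51.4% passed as higher. From CD11c-negative to CD11c-positive NASH cells, 1 of the 3, Cd209f, was lower without overlap (16.7% of genes), and 23.3% of the tested genes passed as lower and 29.9% as higher. Nothing is read from the members' counts, because the genes were chosen for these differences and Cd209b was kept only through the wildtype group, where it is high. Both comparisons with wildtype share the same 5 wildtype arrays. In the order of levels, Cd209f went from wildtype to NASH CD11c-negative to NASH CD11c-positive cells with all groups apart. Wildtype was also highest for Cd209b and Cd209d, while the arrays of the NASH groups, neighbours in that order, overlapped for both genes.

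**Figure D2:**
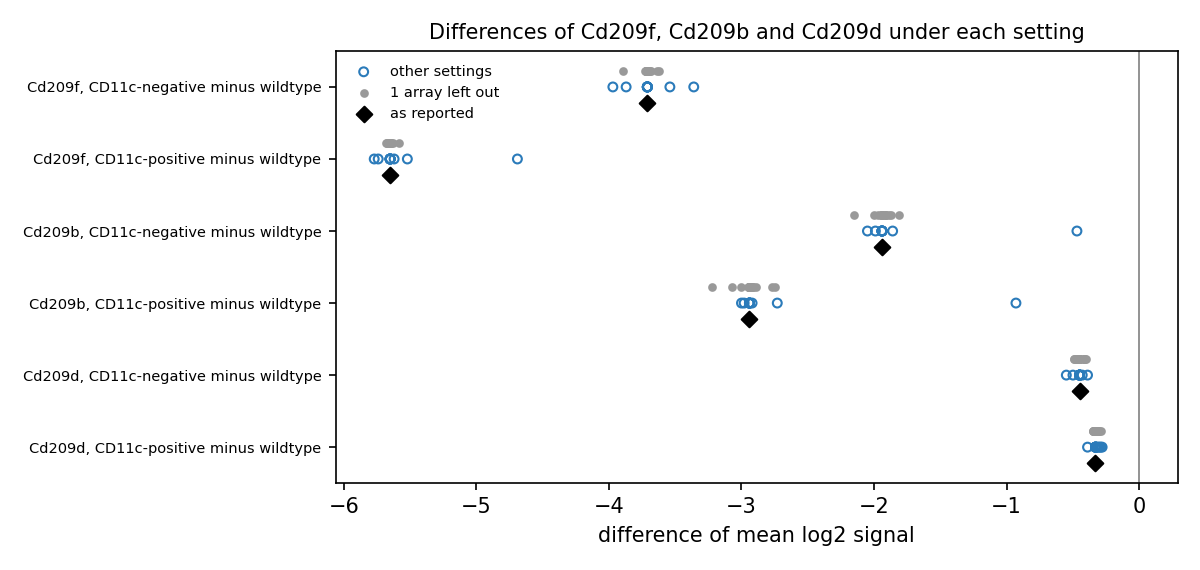
Difference of mean log2 signal from wildtype (x axis) of Cd209f, Cd209b and Cd209d for each NASH group (rows): black diamonds are the values as reported, open circles the other processing settings, grey points the 15 fits that each left out 1 array. All points lie left of 0, and the isolated points of Cd209b at -0.47 and -0.93 are the values with normexp background correction.

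The reference places the lectin genes side by side on chromosome 8, in the order Fcer2a, Clec4g, Cd209a, Cd209e, Cd209d, Cd209b, Cd209c, Cd209f and Cd209g, and these 9 are the protein-coding genes of that interval. Tests of the neighbours showed that they did not all move like the 3 genes above. In NASH CD11c-negative cells all 3 measured paralogues outside the members, Cd209a, Cd209c and Cd209e, passed as lower than wildtype. In NASH CD11c-positive cells Cd209a and Cd209c passed as higher than wildtype, while Cd209e passed as lower. No probe was matched to Cd209h.

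Cd209a, the paralogue known from dendritic cells, ran in the opposite direction to Cd209f between the NASH groups. Its wildtype arrays stood between 0.75 and 0.86, the NASH CD11c-negative arrays between -1.01 and -0.71, and the NASH CD11c-positive arrays between 2.08 and 2.21, so no groups overlapped. It fell by 1.67 ± 0.051 in NASH CD11c-negative cells (3.19-fold, adjusted p = 5.64e-13, lower on 5 of 5 arrays), and was 8.0-fold higher in CD11c-positive than in CD11c-negative NASH cells (3.00 ± 0.051, adjusted p = 6.79e-15). Against wildtype it was 2.51-fold higher in NASH CD11c-positive cells (1.33 ± 0.051, adjusted p = 5.87e-12). A dimmer probe of the gene gave -1.83, 3.11 and 1.28 for the same 3 differences, with 2 of 5 NASH CD11c-negative arrays well above background.

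Cd209c was near background throughout. It was well above background on 2 wildtype arrays, on no NASH CD11c-negative array and on 4 NASH CD11c-positive arrays. In NASH CD11c-positive cells it was at least 1.61-fold higher than in CD11c-negative ones (adjusted p = 1.40e-08). The fitted difference of NASH CD11c-negative from wildtype cells was -2.02 ± 0.17 (adjusted p = 5.60e-08). No fold is given for it, since most arrays of both groups were not well above background. The higher level in NASH CD11c-positive than in wildtype cells (0.58 ± 0.17, adjusted p = 0.00652, with overlapping arrays) was not called with normexp background correction (0.06) or on slide 1 alone (0.57). Its other probe was not well above background on any array.

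Cd209e was well above background on 5 wildtype arrays, on no NASH CD11c-negative array and on 3 NASH CD11c-positive arrays. Wildtype was at least 2.34-fold above NASH CD11c-negative cells (adjusted p = 8.62e-08), and NASH CD11c-positive cells differed from wildtype by -1.21 ± 0.20 (adjusted p = 7.77e-05). The fitted difference between the NASH groups was 1.11 ± 0.20 (adjusted p = 0.000355), with a bound of 1.01-fold, and it turned to -0.08 with normexp background correction.

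**Figure D3:**
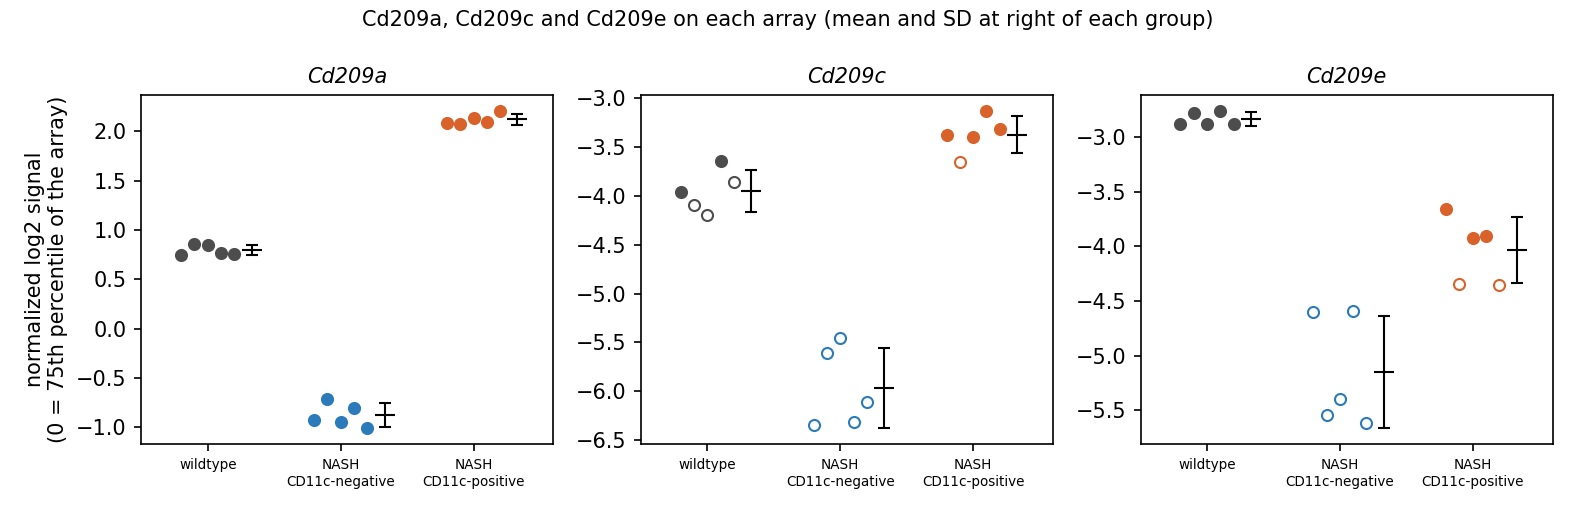
Normalized log2 signal of Cd209a, Cd209c and Cd209e on each of the 15 arrays (y axis, a separate scale per gene) by group (x axis); open points were not well above background, and bars are the mean and SD of 5 arrays. The NASH CD11c-negative arrays are lowest for all 3 genes, and the NASH CD11c-positive arrays of Cd209a, at 2.08 to 2.21, are above all others.

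Both lectin genes at the other end of the cluster were lower in NASH. Clec4g, the gene of the lectin LSECtin known from liver sinusoidal endothelium, had a mean of 7.09 in wildtype, 6.35 in NASH CD11c-negative and 5.28 in NASH CD11c-positive cells. It fell by 0.74 ± 0.041 (adjusted p = 4.31e-10) and 1.81 ± 0.041 (adjusted p = 1.47e-14) against wildtype, and by 1.06 ± 0.041 between the NASH groups (adjusted p = 3.34e-11), with no overlap of arrays. Fcer2a, the low-affinity IgE receptor CD23 of B cells, fell by 1.51 ± 0.12 in NASH CD11c-negative cells (adjusted p = 1.97e-08) and by 1.53 ± 0.12 in NASH CD11c-positive cells (adjusted p = 1.53e-08). The NASH groups differed by -0.02 ± 0.12 (adjusted p = 0.911).

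**Figure D4:**
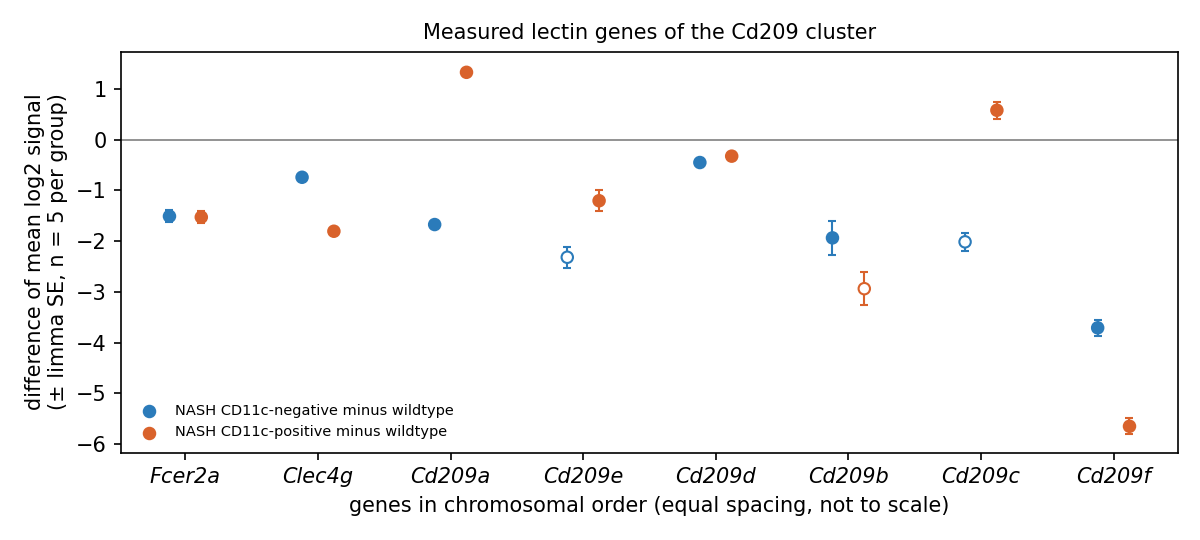
Difference of mean log2 signal from wildtype (y axis, ± limma SE, n = 5 per group) of the 8 measured lectin genes in their order on the chromosome (x axis, equal spacing, not to scale); open points mark a NASH group without any array well above background, where the fitted value is no bound. Cd209f at -3.71 and -5.65 lies lowest, and Cd209a at 1.33 and Cd209c at 0.58 lie above 0 in NASH CD11c-positive cells.

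Markers of other cell types moved between the same groups, and their part in these differences was not tested. The summed signal of 10 liver sinusoidal endothelial markers, in multiples of an array's 75th percentile, ran from 387 to 423 in wildtype, 231 to 245 in NASH CD11c-negative and 150 to 155 in NASH CD11c-positive cells, and 9 of 10 were lower in each NASH group than in wildtype. These 10 include Clec4g itself, so its fall is part of the sum. Cdh5 is counted here and also among the Kupffer cell markers. Kupffer cell markers ran from 2780 to 3040, 1650 to 1800 and 1300 to 1410 in the same order, with 10 of 10 lower in each comparison. Neutrophil markers ran the other way, from 415 to 435 in wildtype, 1580 to 1730 in NASH CD11c-negative and 646 to 680 in NASH CD11c-positive cells. Monocyte markers ran from 86.4 to 93.6, 177 to 193 and 115 to 122, but the 7 measured genes were mixed. Against wildtype, 4 were higher, 1 lower and 2 did not pass in NASH CD11c-negative cells. In NASH CD11c-positive cells 4 were higher, 2 lower and 1 did not pass. Much of the rise in the sum is that of Chil3, 10.1-fold and 3.74-fold higher than in wildtype. B cell markers, Fcer2a included, ran from 59.5 to 67.4, 38.1 to 45.3 and 22.3 to 25.1. T cell markers ran from 30.9 to 33, 19.4 to 24.8 and 18.5 to 22.1, and hepatocyte markers from 25.8 to 28.7, 12.3 to 13.8 and 10.9 to 12.1. Conventional dendritic cell markers, Cd209a included, ran from 39.8 to 42.4 in wildtype, 22.6 to 25.0 in NASH CD11c-negative and 48.3 to 52.1 in NASH CD11c-positive cells. The probe of Xcr1 did not rise above background in NASH CD11c-negative cells. Without Cd209a, which the list contains, 6 of its 7 measured genes fell in NASH CD11c-negative cells against wildtype and 6 of 7 were higher in CD11c-positive than in CD11c-negative NASH cells. Against wildtype the same 7 genes were mixed in NASH CD11c-positive cells, with 4 higher, 2 lower and 1 that did not pass (median 0.37 beside 0.16 over all genes).

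The genes most like each member over the 15 arrays were those with the smallest root mean square difference of centred log2 values, a measure of size and shape together. For Cd209f these were Raver2 (0.551), Timd4 (0.577), Cd163 (0.602), Ptgis (0.663) and Mcf2 (0.678), against a median of 2.435 over all genes. Timd4 encodes TIM-4, with which resident macrophages bind phosphatidylserine on dying cells, Cd163 the scavenger receptor for haemoglobin bound to haptoglobin, and Ptgis prostacyclin synthase. Timd4 was 7.48-fold lower in NASH CD11c-negative and 20.8-fold lower in NASH CD11c-positive cells than in wildtype, and Cd163 was 29.4-fold and 51.5-fold lower. The difference of Cd209f between the NASH groups (-1.94) was beyond those of Timd4 (-1.48), Raver2 (-1.53), Mcf2 (-1.41), Cd163 (-0.81) and Ptgis (-0.46). Mcf2 was well above background on 1 of the 10 NASH arrays.

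For Cd209b the nearest genes were Mid2 (0.359), Cpa3 (0.374), Elovl3 (0.431), Efnb3 (0.449) and Slc12a8 (0.453), against a median of 1.397. Cpa3 is the carboxypeptidase of mast cells and Elovl3 a fatty acid elongase. Mid2, Cpa3 and Elovl3 were well above background on 5 wildtype arrays and on no NASH array, so much of this likeness lies in values below background. Slc12a8, measured on all 15 arrays, had differences of -2.06 and -2.77 from wildtype. For Cd209d the nearest were Cyp2d40 (0.066), Sec61a2 (0.090), Airn (0.090), Btbd16 (0.097) and Etfbkmt (0.101), against a median of 0.368. The members were not close to each other. Cd209b differed from Cd209d by 1.186 and from Cd209f by 1.299, and Cd209d from Cd209f by 2.205.

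**Figure D5:**
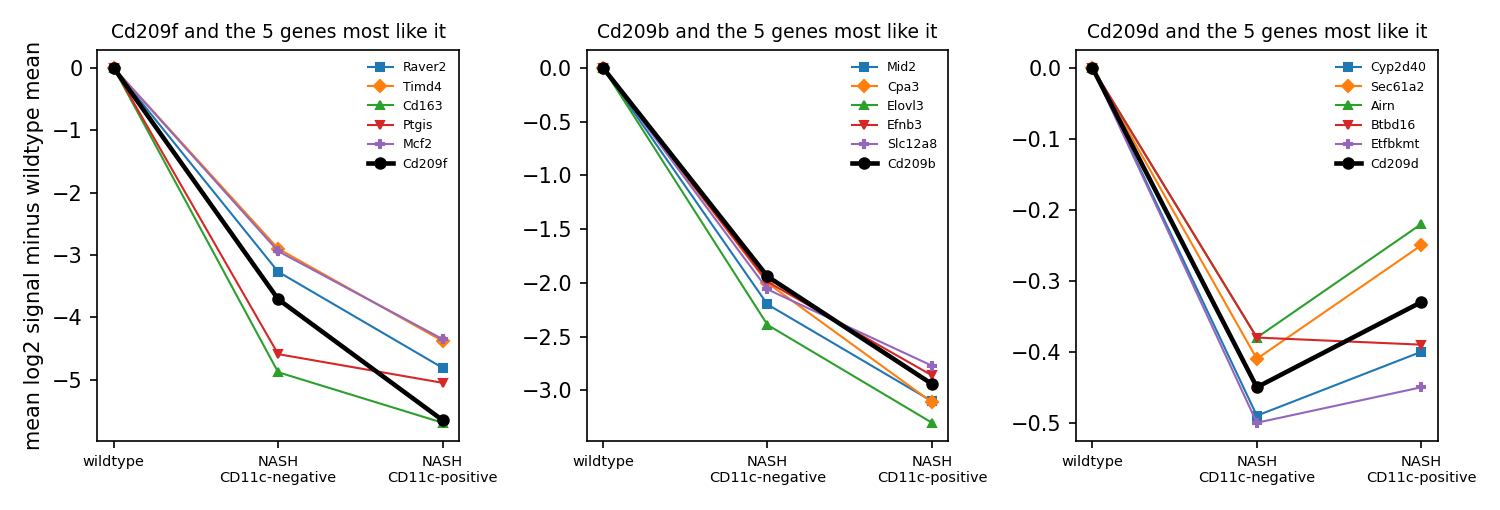
Mean log2 signal relative to the wildtype mean (y axis, 5 arrays per group, a separate scale per panel) of Cd209f, Cd209b and Cd209d (black) and of the 5 genes most like each (colours) over the 3 groups (x axis). Cd209f ends at -5.65 beside Cd163 at -5.69, and the lines of Cd209d and the genes like it stay between 0 and -0.50.

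Other genes of the pathway were described from lists. Among 15 measured of 16 other glycan-binding receptors of macrophages (Clec7a was not measured), 8 rose and 5 fell in NASH CD11c-negative cells against wildtype, with a median of 0.29 beside 0.13 over all genes. Clec4e, the receptor Mincle for mycobacterial and damage-associated glycolipids, was 3.53-fold higher (1.82 ± 0.064, adjusted p = 2.79e-12), and Clec12a was 2.07-fold higher (1.05 ± 0.13, adjusted p = 4.15e-06). Clec4f, a Kupffer cell lectin for galactose-type glycans, was 2.33-fold lower (-1.22 ± 0.036, adjusted p = 4.54e-13), and Siglec1, the sialic acid receptor CD169, was 1.56-fold lower (-0.65 ± 0.034, adjusted p = 2.70e-10). In NASH CD11c-positive cells 6 were higher and 6 lower than in wildtype, with a median of 0.09 beside 0.16. Clec4e was 3.34-fold higher there, Clec4d, its partner receptor, 1.89-fold higher, Clec4f 4.05-fold lower and Cd207 (langerin) 1.84-fold lower. When the NASH groups were compared, 3 were higher and 7 lower in CD11c-positive cells, with a median of -0.16 beside 0.01. Colec12, a scavenger collectin, was 1.38-fold higher, the galectin Lgals3 1.19-fold higher and Clec4f 1.73-fold lower, and Clec4a2 differed by -0.59 ± 0.19 with overlapping arrays (adjusted p = 0.0189).

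SIGNR1 can engage C1q and has been linked to Toll-like receptor and CD14 signalling in the mouse, and SIGNR3 to Syk, so a list of 12 such genes was described, all of them measured. In NASH CD11c-negative cells 9 were higher than in wildtype and none lower, with a median of 0.47 beside 0.13 over all genes. The remaining 3, Syk (0.10) and Tlr4 (0.06) among them, did not pass. Il10, an anti-inflammatory cytokine, was 3.93-fold higher (1.97 ± 0.056, adjusted p = 2.54e-13) and Cd14, a lipopolysaccharide co-receptor, 3.12-fold higher (1.64 ± 0.040, adjusted p = 5.39e-14). In NASH CD11c-positive cells 8 were higher and 1 lower, with a median of 0.28 beside 0.16. Cd14 was 2.25-fold and Il10 2.23-fold higher there, and C1qc differed by -0.12 ± 0.033 (adjusted p = 0.00514). Between the NASH groups 1 was higher and 9 lower in CD11c-positive cells, with a median of -0.19 beside 0.01. Il10 was 1.76-fold and Cd14 1.39-fold lower, and the kinase gene Syk was higher by 0.20 ± 0.050 (adjusted p = 0.00388). With quantile normalization, C1qc (0.18 ± 0.033) and Syk turned to -0.18 and -0.26 in NASH CD11c-negative against wildtype cells, and Syk to -0.01 in NASH CD11c-positive against wildtype cells.

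Among 16 genes of marginal zone and resident macrophages, 2 rose and 12 fell in NASH CD11c-negative cells against wildtype, with a median of -0.56 beside 0.13 over all genes. In NASH CD11c-positive cells 1 was higher and 15 lower than in wildtype, with a median of -0.75 beside 0.16, and between the NASH groups 1 was higher and 13 lower, with a median of -0.31 beside 0.01. Marco, a scavenger receptor that marginal zone macrophages carry together with SIGNR1, was 3.52-fold lower in CD11c-positive than in CD11c-negative NASH cells (-1.82 ± 0.040, adjusted p = 9.47e-14), and Timd4 was 2.78-fold lower. The higher call of Stab1, a scavenger receptor, in NASH CD11c-negative cells (0.11 ± 0.036) turned to -0.27 with quantile normalization.

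Human CD209 is a known target of interleukin-4 in myeloid cells, and the 13 genes of an IL-4 and STAT6 list split. In NASH CD11c-negative cells 6 were higher and 7 lower than in wildtype (median -0.55 beside 0.13), and in NASH CD11c-positive cells 6 were higher and 6 lower (median -0.13 beside 0.16). Chil3, a chitinase-like protein, was 10.1-fold higher in CD11c-negative and 3.74-fold higher in CD11c-positive NASH cells than in wildtype, and Pparg, a lipid-sensing nuclear receptor, 3.14-fold and 3.47-fold higher. Retnla, a secreted resistin-like protein, was 5.92-fold and 3.63-fold lower. The chemokine gene Ccl17 was 9.57-fold lower in NASH CD11c-negative cells than in wildtype (-3.26 ± 0.20, adjusted p = 1.34e-09) and 5.58-fold higher in CD11c-positive than in CD11c-negative NASH cells (2.48 ± 0.20, adjusted p = 1.11e-07). Between the NASH groups 6 of the list were higher and 4 lower in CD11c-positive cells (median 0.08 beside 0.01), with Arg1, arginase, 1.88-fold higher, and Chil3 2.69-fold and the chemokine gene Ccl24 2.83-fold lower.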

How the data were processed

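Intensities were read from 15 one-colour (Cy3) scanner files, made by the authors with Agilent Feature Extraction 10.7.3.1 per the submitters' processing notes, as processed signals that are background-subtracted per the file headers. The authors' deposited table holds log2 values, which matched the log2 signals scaled to the 75th percentile over probes and centred, per probe, on the wildtype median (median absolute difference 0.00152, 99% of values within 0.00482). It served as an alternative only. Per the labels' protocols, 0.1 ug of RNA was labelled per sample.

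Of 62976 spots, 3671 control spots and 113 to 190 spots per array that the scanner software marked as outliers were left out. No spot was saturated. Spots were averaged per probe and the 75th percentile of 55681 probes was subtracted on the log2 scale. Probes were named through RefSeq accessions (26582 named). Probes were kept if 4 or more of the 5 arrays of some group were well above background (28175, of which 17342 named), and the brightest stood for its gene. All 15 arrays, 5 per group, were fitted with lmFit and eBayes of the R package limma 3.58.1 (R itself 4.3.3; tables were read with the data.table package, release 1.17.8), with group means and no covariates, 2-sided, Benjamini-Hochberg adjusted over 13390 genes, called under 0.05. The procedure was tested on simulated data. Where no or few arrays of the dimmer group were above background, "at least" gives a bound. On each array the dimmer side was then set to the lowest signal that passed as well above background, unless the gene's own value was higher. Brighter spots could still miss that mark, as Fcer2a did at 68 units on NASH CD11c-positive replicate 2. Such a bound therefore holds for this floor only. The number of arrays limits the precision. Promoters were aligned with Biopython 1.88 (Python 3.11.15), and plots drawn with matplotlib 3.10.9.

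The members and all lists were chosen with earlier results of these data known. Genes are named by this rule: the members, the other Cd209 paralogues, Clec4g and Fcer2a, the 2 largest rises and falls past the threshold in each list and comparison, and the 5 genes most like each member, predicted genes left out. List counts also cover a few genes left unreported here. Alternatives were quantile normalization, normexp correction of median spot by median background intensity with an offset of 50, slide as a block or alone, replicate number as a block, tests of unfiltered genes or of those above background on all 15 arrays, only the groups compared, the mean of the probes, the deposited values and leaving out each array.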

Additional observations from a re-analysis of the deposited data

Results flagged for a closer look

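Of 24 sets of 5 arrays, 1 per group and Cd209 gene or neighbouring lectin gene, 1 held an array far from the others. This was Cd209f in NASH CD11c-positive cells, where replicate 5 stood at -2.90 and the nearest array at -2.62. The gap was 0.755 of the range of the group, above the critical value of 0.71. Chance marks about 1 in 20 such sets. With any 1 array left out, the difference of Cd209f ranged from -5.68 to -5.58 in CD11c-positive against wildtype cells and from -2.03 to -1.76 between the NASH groups.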

How the results depend on the processing

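The differences of Cd209f, Cd209b and Cd209d from wildtype, for which the genes were chosen, are given as ranges over the alternatives with no reading of their stability, and Cd209b had no value with the filter on all 15 arrays. They ranged from -3.97 to -3.36 and -5.77 to -4.69 for Cd209f, from -2.05 to -0.47 and -3.0 to -0.93 for Cd209b and from -0.55 to -0.39 and -0.39 to -0.28 for Cd209d (CD11c-negative, then CD11c-positive NASH cells). Differences between the NASH groups, CD11c-positive minus CD11c-negative, are likewise a description, and no call is given for them. The fitted value of Cd209b was -1.0 ± 0.33, with 1 CD11c-negative and no CD11c-positive array well above background. Its values were -0.74 with quantile normalization, -1.14 on slide 1 and -0.87 on slide 2 alone. With the replicate block and slide as a block it was -1.05. Over all alternatives Cd209b ranged from -1.14 to -0.45, and from -1.28 to -0.79 with 1 array left out. Cd209d was 0.17 with slide as a block, 0.27 on slide 2 alone and 0.13 with the replicate block. With both blocks it was 0.14. Over all alternatives Cd209d ranged from 0.07 to 0.27, and from 0.07 to 0.17 with 1 array left out. The causes were not tested.

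Turned in direction were Syk (-0.26), C1qc (-0.18) and Stab1 (-0.27) in CD11c-negative NASH against wildtype cells and Syk (-0.01) in CD11c-positive against wildtype cells with quantile normalization. Between the NASH groups Cd209e (-0.08) turned with normexp and Siglec1 (-0.16) with the mean of its probes, and the cause was not tested. Of the remaining alternative values of listed and like genes, 3302 kept their call and direction, 37 gained a call and 29 lost it. Counts of genes called ranged from 9365 to 10996, 6195 to 8372 and 9449 to 10918 (CD11c-negative against wildtype, between the NASH groups, CD11c-positive against wildtype). Same-numbered samples correlated over 0.1 in 11 of 15 pairs (-0.198 to 0.373) and best with their own number in 16 of 30 cases, a hint of shared numbers from the data and not from the design. Both pairs below 0 lay on different slides. Since not every pair was over 0.1 and no label ties the numbers to a batch, the samples were not treated as paired. Signals of Cd209b, Cd209c and Cd209e near background limit their folds.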
